A study of Mus musculus with 2 samples.

Results

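Toll-like receptors, NOD-like receptors and caspases form the machinery by which a cell senses microbes and damage and turns that signal into cytokine release or cell death. In the table of colonic eosinophils, 71 of 23477 genes belonged to it by a rule on gene names: the Toll-like, NLRP and NAIP receptors, Nod1, Nod2, Nlrc3, Nlrc4 and Nlrx1, the IRAK kinases, the caspases and 13 named adaptors, co-receptors and effectors. For each gene the transcript row with the most reads was used. The name pattern also took Casp8ap2 and Irak1bp1, which bind a caspase or a kinase and belong to neither family.

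The series has 1 group, eosinophils of naive wild-type C57BL6 mice, sorted by flow cytometry from colons that had been digested with enzymes. There were 2 samples of 3 technical CEL-Seq libraries each, a method whose tags come from close to the 3′ end of each transcript. For every transcript the table holds a single read total, averaged over the 6 libraries, and a single RPKM, the reads per kilobase of transcript and 1000000 reads, so there is no SD, no n and no test between samples. The gate of the sort is not stated in the labels, nor is how many mice were used. Parentheses hold exact 95% Poisson intervals, computed on the summed reads of the 6 libraries and scaled to RPKM. They cover counting error only, with each read taken as independent, and a level set against another gene's compares these libraries.

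Toll-like receptors sit at the cell surface or in endosomes and bind bacterial lipids, flagellin or nucleic acids. They signal through TIR-domain adaptors to IRAK kinases and on to NF-kB. NOD-like receptors are cytosolic sensors, and several of them assemble with the adaptor Pycard into inflammasomes that activate caspase-1, which matures interleukin-1 beta and cuts gasdermin D into a pore. Eosinophils of the gut wall live close to the microbiota, and which sensors they carry sets what they can respond to.

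The 23477 genes held 7692119 reads over the 6 libraries, of which the 71 members took 9870, or 0.128%. Of 8 eosinophil markers 7 reached an RPKM of 1, among them Siglecf at 77.9, Ccr3 at 155 and Il5ra at 18.6, with Epx, the eosinophil peroxidase gene, at 0.265. Markers of other cells were present too. All 10 epithelial markers reached an RPKM of 1, with a summed RPKM of 227, and Epcam stood at 89.3. Of 9 macrophage and monocyte markers 6 did so, with a sum of 101, Csf1r at 41.0 and Mertk listed at 0. Of 9 neutrophil markers 2 did so, S100a9 at 23.9 and S100a8 at 10.2, with a sum of 36.2 over the 9 and Elane and Mpo listed at 0. Fibroblast markers reached it in 4 of 5 genes, with a sum of 135, T cell markers in 3 of 5 with a sum of 4.30 and B cell markers in 1 of 4 with a sum of 1.96. The part of these cells in the levels below was not tested, and in bulk samples fewer cells of a type and less RNA per cell cannot be told apart.

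Among the members, 27 of 71 (38.0%) had an RPKM of 1 or more, against 31.0% of all genes in the table. The median RPKM was 0.393 for the members and 0.186 for all genes. The families differed widely from each other. Of the caspases, 7 of 10 reached an RPKM of 1, and of the adaptors, kinases and co-receptors 12 of 17, with median RPKM values of 4.93 and 4.79. Of the Toll-like receptors 2 of 12 did so and of the NOD-like receptors 6 of 30, with medians of 0.0573 and 0.0921. At this limit the sensor families stood below the all-gene share of 31.0% and the signalling and effector families above it. The NOD-like share depends on which genes are counted. It was 2 of 5 for the NAIP genes (40.0%) and 3 of 20 for the NLRP genes (15.0%). For Nod1, Nod2, Nlrc3, Nlrc4 and Nlrx1 it was 1 of 5 (20.0%). Without the NLRP4, NLRP5 and NLRP9 groups and Nlrp14, 2 of 8 NLRP genes (25.0%) reached the limit. With any value above 0 the Toll-like receptors, at 9 of 12 (75.0%), stood above the all-gene share of 69.0%, while the NOD-like receptors, at 19 of 30 (63.3%), remained below it. No member reached an RPKM of 100, and the highest, Casp8, had 21.4. Members with 0 reads numbered 15, and 6 had between 1 and 3 reads. The member nearest above the limit of 1 was Nod2 at 1.10 and the nearest below it Aim2 at 0.958, so single genes at the limit should not be read as present or absent.

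**Figure D1:**
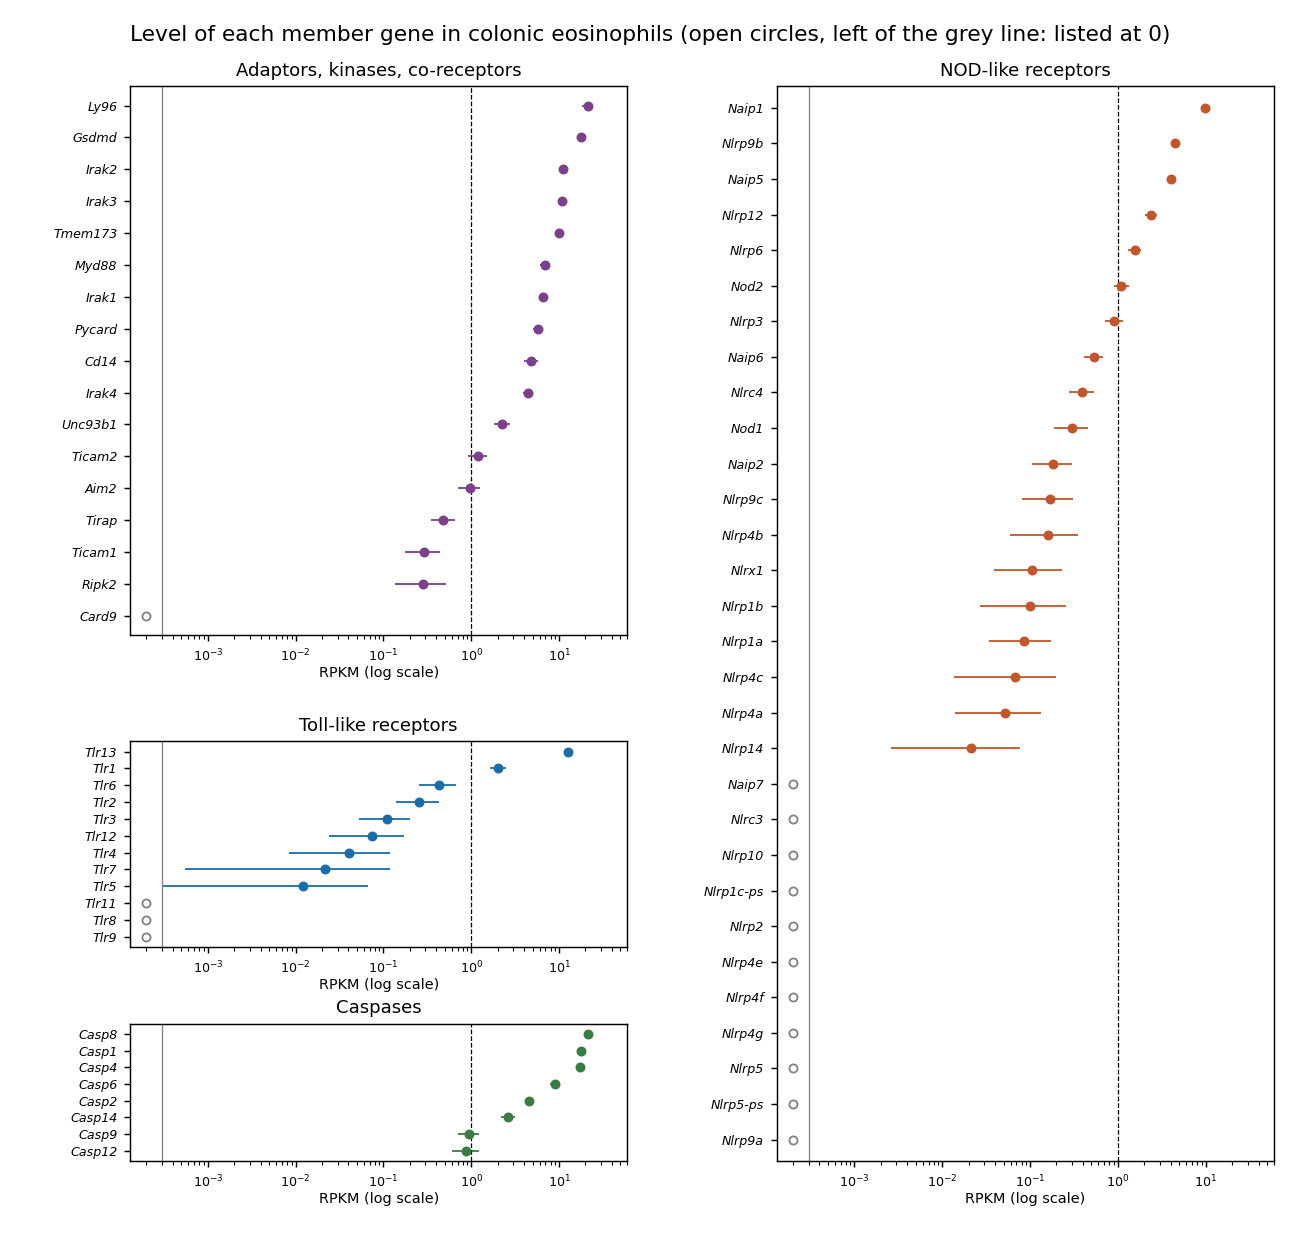
RPKM of each gene on a log axis, by family, with exact 95% Poisson intervals of its summed reads; the dashed line marks an RPKM of 1, and open circles left of the grey line are genes listed at 0, drawn off the scale. Tlr13 stands alone at 12.8 among the Toll-like receptors, whereas 12 of 17 adaptors, kinases and co-receptors and 6 of the 8 caspases drawn lie at or right of the dashed line; Casp8ap2, Irak1bp1 and 2 caspases are not drawn.

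**Figure D2:**
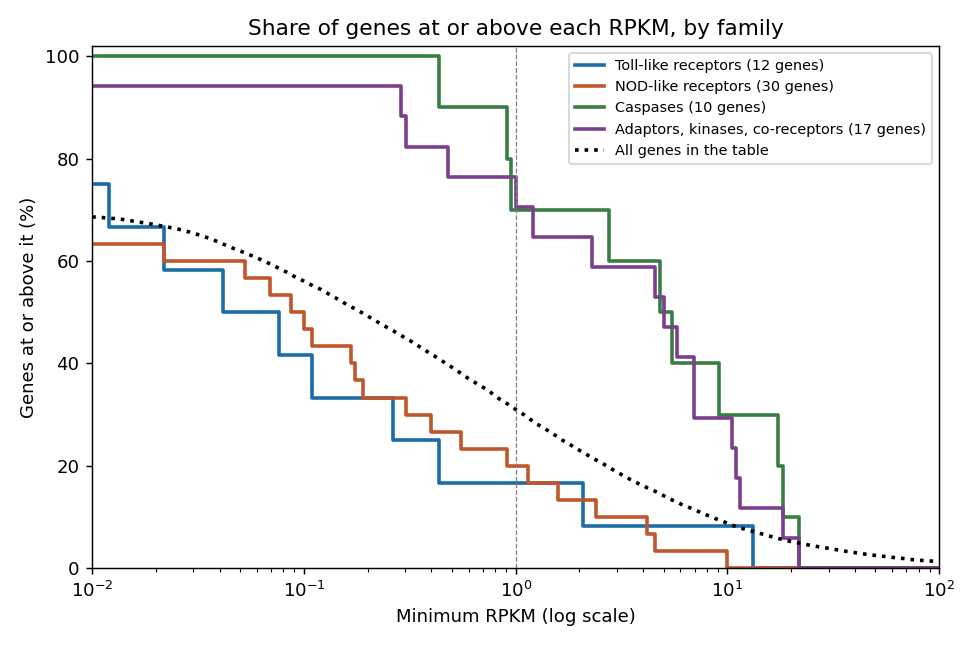
Share of genes in percent (vertical axis) at or above each minimum RPKM (horizontal axis, log scale) for the 4 families and, dotted, for all 23477 genes. At an RPKM of 1 the caspases stand at 70.0% and the adaptors, kinases and co-receptors at 70.6%, the NOD-like receptors at 20.0% and the Toll-like receptors at 16.7%, with all genes at 31.0%.

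Tlr13, the endosomal receptor for bacterial large-subunit ribosomal RNA, was the predominant Toll-like receptor transcript. It had 880 reads and an RPKM of 12.8 (11.96 to 13.7), rank 1721 of all genes by RPKM and rank 1229 by reads. The gene lies on chromosome X from 106143275 to 106160493 on the plus strand, in the mm10 coordinates of the table. These 880 reads were most of the 1021 reads of the whole receptor family. The only other receptor above an RPKM of 1 was Tlr1, which pairs with Tlr2 to bind triacylated lipopeptides, with 88 reads and an RPKM of 2.04 (1.63 to 2.51). Tlr13 was 6.28 times Tlr1 per length, with an interval of 5.04 to 7.92, and had 10 times its reads.

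The remaining surface receptors were low. Tlr6, which pairs with Tlr2 to bind diacylated lipopeptides, had an RPKM of 0.425 from 19 reads. Tlr2 itself, the shared partner, had 0.253 (0.138 to 0.424) from 14 reads, and Tlr1 was 8.06 times it (4.56 to 15.3). Tlr1 thus stood well above the chain it pairs with. Tlr4, the receptor for endotoxin (bacterial lipopolysaccharide), had 3 reads and an RPKM of 0.0406 (0.00837 to 0.119). GENCODE M21 annotates a protein-coding Tlr4 transcript that ends 87488 bases beyond the table's row, and reads there would not have been counted in it. Whether this lowers the level of Tlr4 was not tested. Tlr5, the flagellin receptor, named here outside the rule for named genes, had 1 read.

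The other endosomal receptors were at or near the counting limit. Tlr3, which binds double-stranded RNA, had 10 reads and an RPKM of 0.109. Tlr12, a receptor for the profilin of apicomplexan parasites in mice, had 5 reads, and Tlr7, a receptor for single-stranded RNA, had 1. Tlr8, Tlr9, the receptor for unmethylated DNA, and Tlr11 were listed at 0. A count of 0 over the 6 libraries allows up to 3 reads, which is 0.390 RPM, the reads per 1000000 reads on genes with no division by length. Tlr4 and Tlr7 were therefore not distinguishable from the receptors listed at 0 at this depth.

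These receptors shared little sequence with other genes at their 3′ ends. Of the words of 35 bases in the last 500 bases of the transcript, none in Tlr13, Tlr2, Tlr4 or Tlr7 was found in another gene's transcripts, against 4.51% in Tlr1, which lies next to Tlr6 on chromosome 5 and shares them with it. The coding sequences of Tlr1 and Tlr6 are 74.8% identical over 2362 aligned bases. GENCODE M21 annotates a protein-coding Tlr6 transcript that ends 1064 bases beyond its row, with the same limit as for Tlr4.

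The co-receptors of endotoxin had more reads than the Tlr4 row. Ly96 (MD-2), the small protein that holds the lipid against Tlr4, had 193 reads and an RPKM of 21.1 (18.3 to 24.3). Cd14, which hands lipopolysaccharide to Ly96 and Tlr4, had 121 reads and an RPKM of 4.79 (3.97 to 5.72). Ly96 had 64.3 times the reads of Tlr4. Per length it stood at 521 times Tlr4, with a counting interval of 176 to 2547, but Tlr4 rests on 3 reads, a number that a count of 0 also allows, and on a row that stops short of an annotated end. The rank of Ly96 depends on its length. The transcript matched to its row is 429 bases long, so Ly96 ranked 1174 of all genes by RPKM but 3775 by reads, at 25.1 RPM. A second Ly96 row with the same start and end had 8 reads. Unc93b1, the chaperone that carries endosomal receptors to endosomes, had 92 reads and an RPKM of 2.27 (1.83 to 2.78).

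Among the TIR adaptors, Myd88 led. Myd88, used by nearly all Toll-like receptors and by the interleukin-1 receptor family, had 225 reads and an RPKM of 6.87 (6.001 to 7.83). Ticam2 (TRAM), the bridging adaptor of Tlr4, had 1.19 (0.911 to 1.52), Tirap, the bridging adaptor of Tlr2 and Tlr4, 0.477 (0.344 to 0.645), and Ticam1 (TRIF), which serves Tlr3 and Tlr4, 0.289 (0.176 to 0.446). Myd88 was 5.78 times Ticam2 (4.35 to 7.79), 14.4 times Tirap (10.3 to 20.5) and 23.8 times Ticam1 (15.0 to 39.7) per length, but 3.63, 5.36 and 11.2 times by reads. Of the searched words of Tirap 13.1% occur in other genes, and an annotated protein-coding end of Ticam2 lies 940 bases beyond its row. A GENCODE M21 transcript of Slc22a14 on the same strand overlaps the 3′ part of the Myd88 row, and Tmed7 overlaps the Ticam2 row, so reads of these pairs may not be fully separated. The Tirap value was the same 42 reads in 2 of its 4 rows, and the other 2 rows were at 0.

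All 4 IRAK kinases, which Myd88 recruits, were above an RPKM of 1. Irak2, which sustains NF-kB signalling, had 553 reads and an RPKM of 11.1 (10.2 to 12.1), and Irak3 (IRAK-M), an inhibitory member, had 617 reads and 10.8 (9.97 to 11.7). Their ratio of 1.03 had an interval of 0.918 to 1.16, so the kinase that sustains the signal and the member that restrains it did not differ beyond counting error. Irak1 followed at 6.64 (6.02 to 7.30) and Irak4, the kinase that starts the cascade, at 4.38 (3.86 to 4.94). Irak2 stood at 1.68 times Irak1 (1.48 to 1.91) and Irak1 at 1.52 times Irak4 (1.30 to 1.78). An annotated protein-coding end of Irak4 lies 13499 bases beyond its row, so its place as the lowest of the 4 is uncertain beyond counting error. Of the searched words of Irak2, 19.1% occur in other genes, so its value carries some uncertainty.

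The NOD-like receptors were led by Naip1, a cytosolic sensor of bacterial secretion-system needle protein that acts with Nlrc4. Naip1 had 915 reads, the most of all 71 members, and an RPKM of 9.84 (9.22 to 10.5). By reads it ranked 1188 of all genes and by RPKM 2090, since its transcript of 5361 bases is long. Naip5, which detects flagellin, had 373 reads and an RPKM of 3.99 (3.60 to 4.42). Naip6, also a flagellin sensor, had 71 reads and 0.534 (0.417 to 0.673), and Naip2, a sensor of the secretion-system rod protein, had 16 reads and 0.184 (0.105 to 0.299). Naip7 was listed at 0. Nlrc4, the partner that all of these sensors need to form an inflammasome, had 37 reads and an RPKM of 0.393 (0.277 to 0.542). The rows of Naip1 and Naip5 thus stood above that of the partner they act with. For Nlrc4, 25.5% of the searched words occur in other genes and an annotated protein-coding end lies 857 bases beyond its row, and whether either lowers its level was not tested.

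The NAIP genes are near copies side by side on chromosome 13, which matters for how reads are told apart. Over the whole coding sequence Naip6 was 97.0% identical to Naip5, Naip1 91.9% and Naip2 90.0%.

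In the last 500 bases of the transcript, where tags of this method fall, no word of 35 bases of Naip1 or Naip6 occurred in another gene's GENCODE M21 transcripts. Naip7 had no matching transcript there and was not part of this search. For Naip5 10.9% of words did, and the genes that held most of them were Ccar1, Echs1 and Bicd1, not other NAIP genes. For Naip2 9.87% did, shared first with the pseudogene Naip3. Naip1 stood at 2.47 times Naip5 (2.18 to 2.79) and Naip5 at 7.48 times Naip6 (5.79 to 9.78). The row of Naip7 overlaps that of Naip6 on the same strand, and no source used here gives how the authors divided reads between overlapping rows.

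Among the 20 NLRP genes, 3 reached an RPKM of 1. Nlrp9b, a sensor of double-stranded RNA known from intestinal epithelium, had 373 reads and an RPKM of 4.46 (4.02 to 4.94). Nlrp12, a regulator of NF-kB signalling in myeloid cells, had 166 reads and 2.38 (2.03 to 2.77). Nlrp6, best known from colonic epithelium, had 132 reads and 1.55 (1.30 to 1.84). Beside Nlrp9b, Nlrp6 and the NAIP genes, which intestinal epithelium is known to express, all 10 epithelial markers were present, from 1.60 in Tspan8 to 89.3 in Epcam, and their part in these levels was not tested. The related genes Nlrp9c and Nlrp9a, with coding sequences 82.3% and 83.5% identical to Nlrp9b, had an RPKM of 0.169 and a listing at 0, and 1.07% of the searched words of Nlrp9b were shared. GENCODE M21 annotates a protein-coding end of Nlrp9b 10368 bases beyond its row, and one of Nlrp12 2726 bases beyond. Such ends also lie 42414 bases beyond the row of Nlrp9c and 1469 beyond that of Nlrp9a. Whether they lower the levels of these genes was not tested.

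Nlrp3, the sensor of the best-studied inflammasome, had 70 reads and an RPKM of 0.910 (0.709 to 1.15), so its interval included 1. Nod2, which detects muramyl dipeptide of the bacterial wall, stood at 1.10 (0.893 to 1.34) from 98 reads, and Nod1, which detects a peptidoglycan fragment, at 0.302 (0.187 to 0.461) from 21. Ripk2, the kinase through which Nod1 and Nod2 signal, had 10 reads and an RPKM of 0.280 (0.134 to 0.515), and Nod2 was 3.93 times Ripk2 per length (2.05 to 8.45) but 9.80 times by reads. An annotated protein-coding end of Ripk2 lies 642 bases beyond its row. The other 7 NOD-like receptor genes with reads lay between an RPKM of 0.0214 and 0.161, on 2 to 7 reads each. The 11 listed at 0 include Naip7, Nlrc3, Nlrp10 and the pseudogene Nlrp1c-ps. For Nlrc3 an annotated protein-coding end lies 1926 bases beyond its row, and 30.9% of the searched words occur in other genes.

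The inflammasome adaptor Pycard (ASC), which joins sensors to caspase-1, had 243 reads and an RPKM of 5.71 (5.01 to 6.47), 6.27 times Nlrp3 per length (4.79 to 8.30) and 3.47 times by reads. An annotated protein-coding end of Pycard lies 1665 bases beyond its row. Tmem173 (STING), the receptor for cyclic dinucleotides, had 372 reads and an RPKM of 10.01 (9.02 to 11.1). Aim2, a sensor of cytosolic DNA, had 52 reads and 0.958 (0.715 to 1.26). Card9, the adaptor of C-type lectin receptors, was listed at 0 in its single row, whose 3′ part Gm13562 overlaps on the opposite strand. Syk, the kinase upstream of Card9, had an RPKM of 25.5, and Bcl10 and Malt1, the partners of Card9, had 18.5 and 1.25. A listing at 0 is not evidence that a gene was silent, since a count of 0 allows up to 3 reads. Single rows at 0 are a separate matter. Of the 14 members with reads and more than 1 row, 10 also have a row at 0 whose 3′ end is the same as that of a row with reads. This does not bear on Card9 or the other members listed at 0, since the row with the most reads was used.

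Of the 10 caspase genes all had reads and 7 reached an RPKM of 1. Casp8, the initiator of death-receptor apoptosis, which also restrains necroptosis, led with 871 reads and an RPKM of 21.4 (20.0 to 22.9). Casp1, the interleukin-1-converting enzyme of inflammasomes, had 429 reads and 17.8 (16.2 to 19.6). Casp4, the mouse caspase-11 that binds cytosolic lipopolysaccharide, had 423 reads and 17.1 (15.5 to 18.8). Casp8 was 1.20 times Casp1 per length, with an interval of 1.07 to 1.35, and 2.03 times by reads. Casp1 and Casp4 stood at a ratio of 1.04, with an interval of 0.908 to 1.19, and were not distinguished by their counting error.

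Casp8 has 3 rows. Of these, 2 listed the same 871 reads, at an RPKM of 21.4 and 19.95 because their lengths differ, and the third, with the same start and end as the first, was at 0. Of the searched words of Casp8, 32.0% also occur in other genes, so its lead over Casp1 is uncertain. No such word was found for Casp1, Casp4, Casp6, Casp2, Casp14, Casp9 or Casp12.

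Casp1, Casp4 and Casp12 lie in a row on the plus strand of chromosome 9. Casp1 spans 5298517 to 5307281 and Casp4 5308860 to 5336791, with 1578 bases between them, and Casp12 begins 8684 bases after the end of Casp4, at 5345476. These neighbours are related, at 61.1% identity of coding sequence between Casp1 and Casp4 and 63.1% between Casp4 and Casp12. Their levels were unequal. Casp12, an inflammatory caspase family member linked to stress of the endoplasmic reticulum, had 32 reads and an RPKM of 0.877 (0.600 to 1.24), and Casp1 was 20.3 times it per length (14.2 to 30.1) and 13.4 times by reads.

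The other 4 caspases described here were lower than Casp8, Casp1 and Casp4. Casp6, which cleaves nuclear lamins during apoptosis, had 211 reads and an RPKM of 9.03 (7.85 to 10.3). Casp2, an initiator activated by DNA damage and centrosome defects, had 278 reads and 4.60 (4.07 to 5.17), and Casp6 was 1.96 times it per length (1.63 to 2.36), although Casp2 had more reads. Casp14, known from keratinocyte differentiation, had 123 reads and 2.63 (2.19 to 3.14). Casp9, the initiator of the mitochondrial pathway, had 55 reads and 0.937 (0.706 to 1.22), and Casp8 was 22.8 times it (17.4 to 30.6). Cela2a and Ctrc, on the opposite strand, overlap the 3′ part of the Casp9 row, and whether counting used strand is not stated.

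The 8 caspase genes described here all encode the family's conserved active-site motif. The 21 coding bases around it are shown for the highest 3 and the lowest 2 of these 8, to set the abundant members beside the scarce ones. They run from 5′ to 3′ on the coding strand, joined across an intron except in Casp8, and capitals mark the codon of the catalytic cysteine.
Casp8: attcaggctTGCcaaggaagt
Casp1: attcaggcaTGCcgtggagag
Casp4: gtgcaggccTGCagaggtggg
Casp9: atccaggccTGCggtggtgag
Casp12: atgcaggccTGCagaggcaga
Relative to Casp1 the stretch differs at 6 bases in Casp8, 7 in Casp4, 4 in Casp9 and 8 in Casp12. The sites were found by searching for a motif that holds this cysteine, so its presence in them was set by the search. The codon is TGC in the genes shown and TGT in Casp6, Casp2 and Casp14. The Casp8 stretch lies at chr1:58844610-58844630 on the plus strand of GRCm38.

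Gsdmd (gasdermin D), the pore-forming substrate of caspase-1 and caspase-11, had 559 reads and an RPKM of 17.6 (16.2 to 19.1). It stood at 0.988 times Casp1 (0.870 to 1.12) and 1.03 times Casp4 (0.905 to 1.17), so the 3 genes of this effector step were level with each other within counting error per length. By reads Gsdmd stood above the other genes beyond counting error, at 559 (514 to 607) against 429 (389 to 472) for Casp1 and 423 (384 to 465) for Casp4. This was 72.7 RPM for Gsdmd, 55.8 for Casp1 and 55.0 for Casp4. Casp8ap2 had 46 reads and an RPKM of 0.371, and Irak1bp1 had 1 read.

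Because a 3′ tag does not grow in number with length, RPM was set beside RPKM. The units differ in their read total as well. Over the 31 members with at least 50 reads and a matched transcript, the deposited RPKM implied a median total of 17338574 reads (range 10080710 to 39196777), against 7692119 reads on genes for RPM. These totals used the lengths of the matched GENCODE M21 transcripts, which may differ from the lengths behind the deposited RPKM. The range can therefore hold mismatch of length, and the median is a rough figure. A level of 1 is therefore a lower bar in RPM for a reason other than length. With RPM taken over that median total, a setting chosen after seeing the data, 38 of 71 members (53.5%) reached 1, against 42.5% of all genes. By RPM the leading members were Naip1 at 119, Tlr13 at 114 and Casp8 at 113, whereas by RPKM they were Casp8, Ly96 and Casp1. At a minimum of 1 RPM over the reads on genes, 44 of 71 members were counted, 62.0%, against 50.9% of all genes. The 17 members that passed 1 RPM but not an RPKM of 1 were led by Naip6 at 9.23 RPM, Nlrp3 at 9.10 and Casp9 at 7.15. By RPM too the caspases, with 10 of 10 genes at 1 RPM or more, and the adaptors, kinases and co-receptors, with 16 of 17, stood above the all-gene share of 50.9%. The Toll-like receptors, with 5 of 12 (41.7%), and the NOD-like receptors, with 12 of 30 (40.0%), stood below it.

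**Figure D3:**
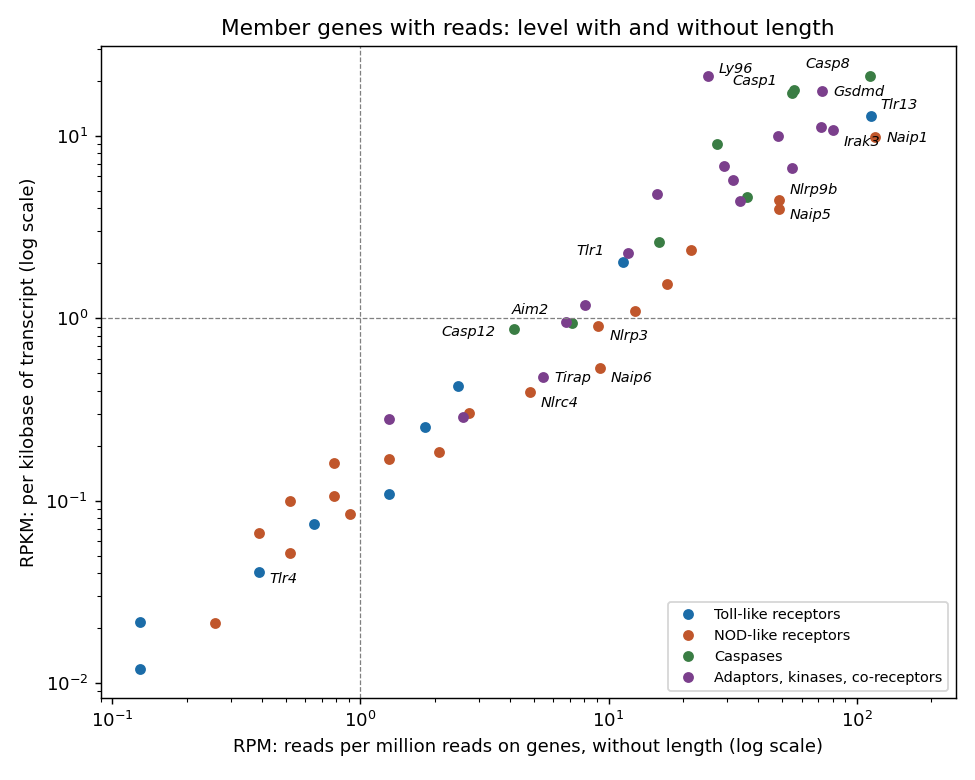
Level of each member gene with reads per kilobase of transcript (vertical axis, RPKM) and without length (horizontal axis, RPM), both on log scales, coloured by family; dashed lines mark a level of 1. Ly96, at 25.1 RPM and an RPKM of 21.1, lies above the other genes of its RPM, and Naip1, at 119 RPM and an RPKM of 9.84, lies below Casp8, at 113 RPM and an RPKM of 21.4; Casp8ap2, Irak1bp1 and 2 caspases are not drawn.

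Partner genes of these pathways were taken from lists chosen with earlier results of these data known. They reached an RPKM of 1 more often than the sensors. Of 64 such genes outside the members, 47 (73.4%) reached an RPKM of 1, against 31.0% of all genes, and none was listed at 0. How far the choice of genes sets this share was not tested. Among transducers of Toll-like receptor signalling, which act after the IRAK kinases or after Ticam1, 10 of 16 did so, led by Tab2, an adaptor of the kinase TAK1, at 31.0, the NF-kB subunit Nfkb1 at 6.10 and the interferon factor Irf3 at 5.40. Among negative regulators 7 of 8 did so. Nfkbia, the inhibitor that holds NF-kB in the cytosol, had 3373, the deubiquitinase Cyld 34.8 and Tnfaip3 (A20) 16.5, while Sigirr, a receptor-like inhibitor, had 0.443.

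In the list of receptor trafficking and ligand handling, 5 of 8 genes reached an RPKM of 1. Lamp1, a lysosomal membrane protein, had 389.7, the cathepsin Ctsb 50.9 and Cnpy3, a chaperone that Toll-like receptors need to fold, 49.4. Hsp90b1, the chaperone that works with Cnpy3, had 11.8. Among inflammasome partners and products, 8 of 10 did so, led by the interleukin genes Il1b at 263 and Il1a at 200.1 and by Txnip at 13.5, while P2rx7, the ATP-gated channel that triggers Nlrp3, had 0.696. Per length the cytokine Il1b thus stood far above every inflammasome sensor and caspase among the members. The highest of these was Casp8 at 21.4, followed by Casp1 at 17.8. By RPM Il1b had 694, against 119 for Naip1, then the highest of them, and 55.8 for Casp1.

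Of 7 genes of cytosolic nucleic acid sensing, 5 reached an RPKM of 1, led by Zbp1 at 9.93, Ddx58 (RIG-I) at 7.73 and the adaptor Mavs at 4.21. The enzyme Mb21d1 (cGAS), which makes the ligand of Tmem173, had 2.39. Of the 15 genes in the list named death pathway partners 12 did so, led by the ubiquitin ligase Birc3 at 184, Syk at 25.5 and Bcl10 at 18.5. That list is wider than its name, since it also holds Syk, Bcl10 and Malt1, described above with Card9. The adaptor Fadd, which joins death receptors to Casp8, had 0.839, and Cflar, the Casp8 inhibitor, had 1.21. Apaf1, the scaffold that activates Casp9, had 2.70, and the necroptosis genes Ripk3 and Mlkl had 1.75 and 3.62. Hsp90b1, P2rx7, Sigirr, Mb21d1, Malt1, Fadd, Cflar, Apaf1, Ripk3 and Mlkl are named in addition to what the rule takes, with their values already known.

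**Figure D4:**
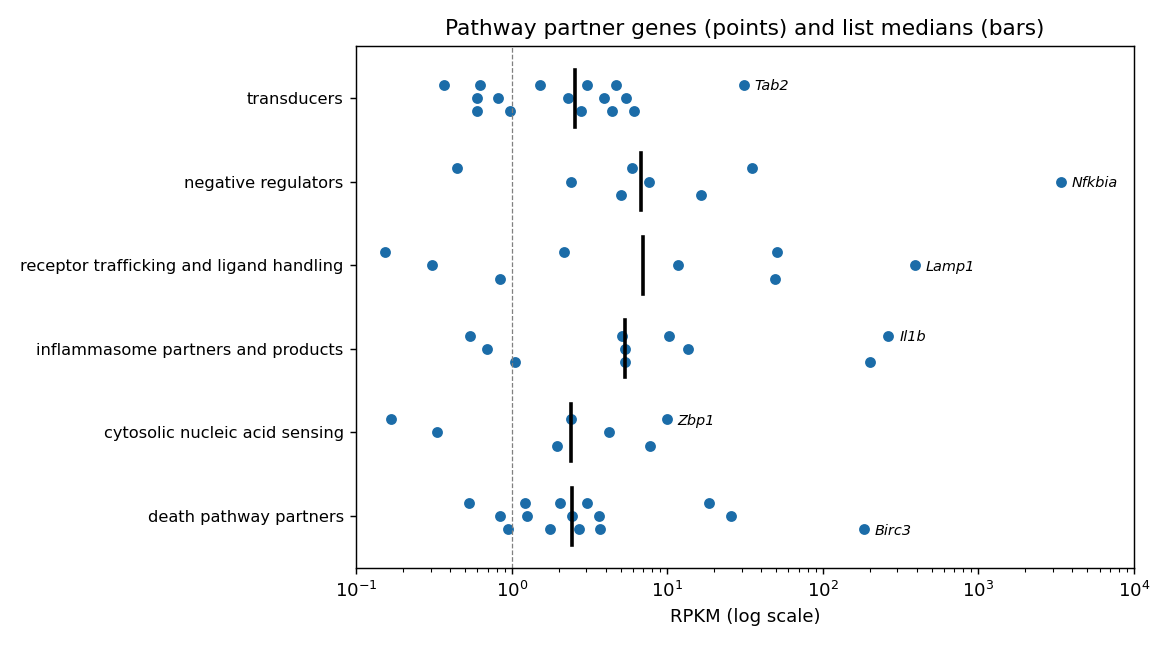
RPKM on a log axis of 64 partner genes in 6 lists; each point is a gene, the black bar is the median of its list and the dashed line marks an RPKM of 1. The highest gene of each list is named, from Nfkbia at 3373 to Zbp1 at 9.93, and list medians run from 2.39 for cytosolic nucleic acid sensing to 6.98 for receptor trafficking and ligand handling.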

How the data were processed

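RNA of 2 samples of colonic eosinophils was measured by CEL-Seq with 3 technical libraries each, per the labels' protocols. Per the submitters' processing notes, STAR 2.4.2a and DESeq were used with build mm10; no read counter, annotation release or transcript length is named there. The table deposited by the authors has 31295 transcript rows and 2 columns of values, of which one is a read total and the other an RPKM, per the file headers. The read totals, times 6, are whole for 100% of rows within 0.001, so they were taken as a mean over 6 libraries. Neither column names a sample, so both are the authors' mean for the whole group. There were 0 columns of other samples. Mean read total over genes was 1282020 per library.

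One row per gene, the row with the most reads and then the highest RPKM, gave 23477 genes. Reads were recovered as the read total times 6, with exact Poisson intervals, and ratios of genes with exact conditional binomial intervals, at 95%. A count of 0 was given a limit of 3 reads. Labels name no molecular identifiers, so intervals and limits cover counting error only. RPM was computed as reads per 1000000 reads on genes. Shared words of 35 bases were searched in GENCODE M21 (GRCm38) for 69 of 71 members, matched by RefSeq accession; 45 members had none, and no member had 50% or more. Sequences are from GENCODE M21. The table's coordinates were used as given, in mm10.

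The members and lists were chosen with earlier results of these data known. The values of 2 caspases are not reported here by gene, though family counts and medians hold them. Named were all other members at an RPKM of 1 or more, up to 6 below it and 4 at 0 per family, and the 3 highest genes of each partner list. The design has no contrast, so no test was made. Python 3.11.15 was used with pandas 2.3.3, numpy 2.4.6, scipy 1.17.1, matplotlib 3.10.9 and Biopython 1.88. The interval code was run on simulated Poisson reads. Such a run checks the code and cannot show whether the real reads are Poisson.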

Additional observations from a re-analysis of the deposited data

How the results depend on the processing

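The count of members at the detection minimum followed the unit and the minimum, as did that of all genes. By RPM of 1 or more it was 44 of 71 members, with 5 Toll-like receptors, 12 NOD-like receptors and 11 caspases, counting Casp8ap2, against 50.9% of all genes. By RPKM rescaled to a sum of 1000000 it was 41, with 4, 10 and 11 in those families, against 47.4% of all genes. With RPM over the total that RPKM implies, chosen after seeing the data, it was 38, with 3, 10 and 10, against 42.5%. With any value above 0 it was 56, with 9, 19 and 11, against 69.0%, and here the Toll-like receptors, at 75.0%, stood above all genes and not below, and at an RPKM of 5 it was 15, with 1 Toll-like and 1 NOD-like receptor, against 14.15%. The median of the members was 2.73 RPM, against 1.04 for all genes, and 1.65 on rescaled RPKM, against 0.783. Taking the row with the highest RPKM, or leaving out Casp8ap2 and Irak1bp1, moved no count and no median by more than 1.5 times. The adaptor, kinase and co-receptor count stayed within 1.5 times of 12 under these alternatives. Leaving out each sample was not run, because both columns hold the mean of all libraries. No paired analysis was possible because there is 1 group and the columns carry no replicate numbers. Depth limits the genes with 1 to 3 reads, 6 of 71, and those listed at 0.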
